A study of Mus musculus with 5 samples.

Results

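Germinal centre B cells of the light zone display antigen to T follicular helper cells, and a set of surface molecules on the B cell decides what signal that contact carries. The 10 genes described here encode such molecules. They are the receptor CD40 (Cd40), the B7 family ligands CD80 and CD86 (Cd80, Cd86), the maturation marker CD83 (Cd83), the ICOS ligand (Icosl), the PD-1 ligands PD-L1 and PD-L2 (Cd274, Pdcd1lg2), and the SLAM receptors SLAM, Ly108 and CD84 (Slamf1, Slamf6, Cd84). They were taken by gene name from a table of 23234 genes and not by a cut on their values, though earlier results of these data were known. All 10 passed the filter on low values. RNA was sequenced from light zone donor B cells that bound NP and were sorted out of mouse spleen. There were 2 libraries with the label Csk(f/f) and 3 with the label Csk(+/+). Csk is the kinase that holds Src family kinases in check, and the study deals with B cell receptor signalling, reactive oxygen species and selection in germinal centres. Donor B cells of both groups carried 1 allele each of ERT2cre, a Cre recombinase that acts after tamoxifen, and of B1-8hi, a rearranged heavy chain knock-in that binds the hapten NP. Donors were CD45.1/2, and either floxed on both alleles of Csk or Csk wild type. The hosts were C57BL/6J mice, whose own B cells remained, and they received NP-CGG with alum on day 0 as immunization. Tamoxifen was given to both groups on days 8 and 9, and cells were sorted on day 11. The labels do not state the age of the mice or whether animals were pooled.

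CD40 on the B cell is engaged by CD40 ligand on the helper T cell and signals through TRAF adaptors to NF-kB, a main survival and selection signal for light zone cells. CD80 and CD86 engage CD28, which activates the T cell, and CTLA-4, which restrains it, whereas ICOSL engages ICOS on follicular helper cells. PD-L1 and PD-L2 engage the inhibitory receptor PD-1, which follicular helper cells carry at high levels. SLAM receptors mostly bind their own kind on the opposing cell and act through SAP-type adaptors to lengthen contacts between B and T cells. CD83 and CD86 are the surface proteins by which light zone cells are commonly told from dark zone cells.

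Levels are given as FPKM, fragments scaled to transcript length and library size, as deposited. From the spacing of low FPKM values, each library held roughly 9.67 to 23.7 M fragments. Csk itself had 453 and 476 FPKM in Csk(f/f)-labelled libraries, against 378, 436 and 415 FPKM in the Csk(+/+) libraries (464 ± 15.9, SD, n = 2, and 410 ± 29.3, SD, n = 3). Its difference did not pass the test (limma adjusted p = 0.439), and a two-sided exact permutation test gave p = 0.2, where 10 splits allow no p under 0.1. After the correction for GC content described further on, its log2 fold change was -0.14 (limma adjusted p = 0.818). The corrected Csk values were lower in Csk(f/f)-labelled libraries without overlap, as were those of 13.9% of genes. A value per gene includes exons outside a floxed part, so it does not check the genotype, and the groups are called by their labels. All 6 B cell markers and all 7 germinal centre markers examined reached 1 FPKM in at least 1 library. Summed levels of the 4 marker lists of B cell zones and states given next did not overlap between the groups. All marker values here are as deposited, without the correction for GC content. As deposited, libraries of the groups did not overlap for 45.1% of all tested genes. The light zone sum, nearly all of it Cd74, was 15969 to 16009 FPKM in Csk(f/f)-labelled libraries and 10828 to 14564 FPKM in Csk(+/+) libraries. The other genes of that list went both ways. Lmo2 and Bcl2a1b were lower in Csk(f/f)-labelled libraries without overlap, Egr3 was higher without overlap, and Nfkbia overlapped. The dark zone sum was 165 to 182 FPKM in Csk(f/f)-labelled libraries and 195 to 209 FPKM in Csk(+/+) libraries. Of the dark zone genes Ccnb1, Aurka and Gcnt1 were lower in Csk(f/f)-labelled libraries without overlap, and Cxcr4, Mki67 and Foxo1 overlapped. The naive B cell sum, mostly Fcer2a, was 434 to 487 FPKM in Csk(f/f)-labelled libraries and 355 to 398 FPKM in Csk(+/+) libraries. The plasma cell sum, mostly Xbp1, was 119.6 to 130.3 FPKM in Csk(f/f)-labelled libraries and 93.1 to 101.6 FPKM in Csk(+/+) libraries, with the defining gene Sdc1 under 1 FPKM in every library. Cells of these states can differ in the 10 transcripts, and the part of the 4 lists in the results was not tested. Of 9 T cell markers in the table, the CD3 chain genes Cd3e and Cd3g were listed at 0 in every library, and the list's sum, 168 to 180 FPKM in Csk(f/f)-labelled libraries and 164 to 195 FPKM in the Csk(+/+) libraries, was made up mainly of Lck and Cd2. The sum of the 9 macrophage markers did not overlap between the groups either. It was 24.6 to 24.7 FPKM in Csk(f/f)-labelled libraries and 12.4 to 21.5 FPKM in the Csk(+/+) libraries. Of these markers 2, Lyz2 and Cd68, were at 1 FPKM or more, and the complement genes C1qa, C1qb and C1qc were under 0.4. Lyz2 had 12.1 and 10.2 FPKM in Csk(f/f)-labelled libraries, against 6.56, 8.01 and 1.91 FPKM in the Csk(+/+) libraries, and Cd68 overlapped. Macrophages and dendritic cells also express several of the 10 genes. Of the 7 dendritic cell markers only Flt3 reached 1 FPKM, with list sums of 18.3 to 24.04 FPKM in Csk(f/f)-labelled libraries and 17.02 to 22.3 FPKM in the Csk(+/+) libraries. The part of these cells in the results was not tested.

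The 10 transcripts spanned a wide range, with Cd83 far above the others. In Csk(f/f)-labelled libraries Cd83 averaged 501 FPKM, 4.66 times the next gene, Cd40. In the Csk(+/+) libraries it averaged 389.9 FPKM, 4.39 times Cd40. Cd83 alone made up 66.4% and 64.3% of the summed FPKM of the 10 genes in Csk(f/f)-labelled libraries, against 57.4%, 59.8% and 60.7% in the Csk(+/+) libraries. In both groups the order began with Cd83, Cd40 and Cd86, which did not overlap each other. Icosl and Slamf1 came next, and in the Csk(+/+) libraries their ranges overlapped. Slamf6 was the sixth gene in both groups, and below it Cd84, Pdcd1lg2, Cd274 and Cd80 had group means of 5.61 FPKM or less. Pdcd1lg2 and Cd84 overlapped in Csk(f/f)-labelled libraries, and Cd274 and Cd80 overlapped in the Csk(+/+) libraries.

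**Figure D1:**
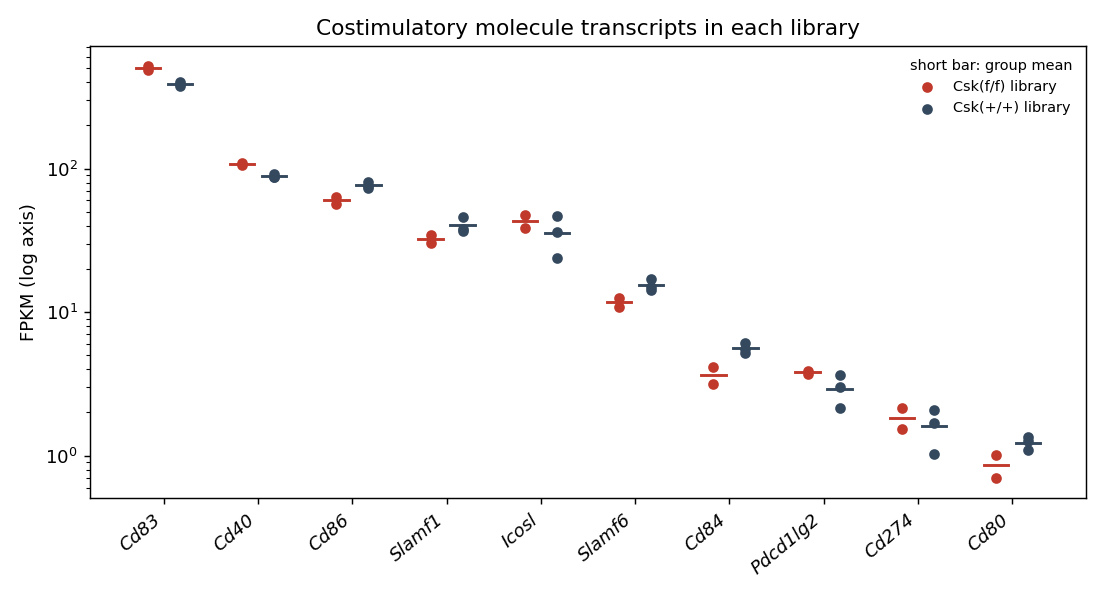
Level of each gene in FPKM (vertical log axis), 1 point per library, with Csk(f/f)-labelled libraries in red left of Csk(+/+) libraries in dark blue and a short bar at each group mean. Cd83 averages 500.6 FPKM in Csk(f/f)-labelled libraries and 389.9 FPKM in Csk(+/+) libraries, and Cd80 averages 0.856 FPKM in Csk(f/f)-labelled libraries and 1.23 FPKM in Csk(+/+) libraries.

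Cd83 and Cd40, the most abundant genes of the set, had higher values in the libraries labelled Csk(f/f), and both differences failed the adjusted test. In bulk RNA, fewer cells carrying a transcript and less of it per cell cannot be told apart. CD83 is an immunoglobulin superfamily protein that keeps MHC class II and CD86 at the surface by opposing the ubiquitin ligase MARCH1. Its transcript had 515 and 487 FPKM in Csk(f/f)-labelled libraries, against 379, 403 and 388 FPKM in the Csk(+/+) libraries. The groups did not overlap. The log2 fold change, on the log2(FPKM + 1) scale used for every fold change here, was 0.36 ± 0.13 (SE), a fold of 1.28 with a 95% interval of 1.04 to 1.58 (limma adjusted p = 0.197). Cd40 had 106 and 109 FPKM in Csk(f/f)-labelled libraries, against 92.4, 87.2 and 87.1 FPKM in the Csk(+/+) libraries. Here too every Csk(f/f)-labelled library lay above every Csk(+/+) library. The log2 fold change was 0.27 ± 0.12 (SE), a fold of 1.21 with a 95% interval of 1.00 to 1.46 (limma adjusted p = 0.230).

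The CD28 ligands had lower values in the libraries labelled Csk(f/f), again short of the threshold. CD86, the B7 ligand that is prominent on light zone cells, had a transcript level of 63.4 and 56.9 FPKM in Csk(f/f)-labelled libraries, against 80.5, 73.2 and 76.0 FPKM in the Csk(+/+) libraries. The groups did not overlap, with a log2 fold change of -0.34 ± 0.12 (SE) and a limma adjusted p of 0.196. As a fold this is 0.788, with a 95% interval of 0.645 to 0.963. Cd80, which binds the same receptors and also marks subsets of memory B cells, was the least abundant of the 10. It had 1.01 and 0.703 FPKM in Csk(f/f)-labelled libraries, against 1.36, 1.26 and 1.09 FPKM in the Csk(+/+) libraries. These groups did not overlap either, at a log2 fold change of -0.27 ± 0.19 (SE; limma adjusted p = 0.409), which the added 1 FPKM makes small for a gene this low. By transcript length and depth these Cd80 values rest on about 21.6 to 78.5 fragments per library. Cd83 and Cd86, whose proteins both mark the light zone, had log2 fold changes of opposite sign as deposited, but after correction for GC content, described further on, that of Cd86 was 0.00 and that of Cd83 was 0.25.

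ICOSL and the PD-1 ligands had the largest standard errors of the 10 genes. Icosl had 38.8 and 47.5 FPKM in Csk(f/f)-labelled libraries, against 36.0, 46.5 and 23.9 FPKM in the Csk(+/+) libraries. The groups overlapped, and Csk(+/+) replicate 3 was the lowest library. The log2 fold change was 0.32 ± 0.26 (SE; limma adjusted p = 0.477), and without that library it was 0.07. Pdcd1lg2, which encodes PD-L2 and, like Cd80, marks memory B cell subsets, had 3.88 and 3.72 FPKM in Csk(f/f)-labelled libraries, against 3.63, 3.03 and 2.15 FPKM in the Csk(+/+) libraries. The groups were separate by a small gap, and Csk(+/+) replicate 3 was again lowest. The log2 fold change was 0.30 ± 0.22 (SE; limma adjusted p = 0.429), and 0.15 without that library. Cd274, which encodes the more broadly expressed PD-L1, had 1.53 and 2.14 FPKM in Csk(f/f)-labelled libraries, against 2.08, 1.69 and 1.03 FPKM in the Csk(+/+) libraries. These groups overlapped, with a log2 fold change of 0.14 ± 0.24 (SE; limma adjusted p = 0.744) and a 95% interval of the fold of 0.746 to 1.62. The sign turned without Csk(+/+) replicate 3 (-0.03) and without Csk(f/f) replicate 2 (-0.02). The values of Pdcd1lg2 and Cd274 rest on about 44.2 to 159 and 44.4 to 131 fragments per library.

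The 3 SLAM receptor genes all had lower values in the libraries labelled Csk(f/f), and none passed the adjusted test. They neighbour each other on chromosome 1, in a stretch that holds 7 SLAM family genes. The bases before their starts are shown because these neighbouring genes of one family had log2 fold changes of the same sign as deposited. That shared sign was lost after correction for GC content, at 0.14 for Slamf1, -0.03 for Cd84 and -0.00 for Slamf6. Each sequence is 250 bases up to the start, 5′ to 3′ on the plus strand, from RefSeq on GRCm38.p6, with CG dinucleotides in capitals. The windows are chr1:171766882-171767131 for Slamf1, chr1:171839447-171839696 for Cd84 and chr1:171917212-171917461 for Slamf6.
Slamf1: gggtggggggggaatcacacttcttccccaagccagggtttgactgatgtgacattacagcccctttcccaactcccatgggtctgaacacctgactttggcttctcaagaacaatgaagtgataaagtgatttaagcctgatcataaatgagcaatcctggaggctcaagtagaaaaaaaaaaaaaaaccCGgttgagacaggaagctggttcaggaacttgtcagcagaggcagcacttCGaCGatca
Cd84: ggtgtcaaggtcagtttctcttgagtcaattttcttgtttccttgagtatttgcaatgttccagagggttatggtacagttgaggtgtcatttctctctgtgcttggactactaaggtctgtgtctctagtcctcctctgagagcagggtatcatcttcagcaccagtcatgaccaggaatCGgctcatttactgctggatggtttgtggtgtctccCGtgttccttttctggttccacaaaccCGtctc
Slamf6: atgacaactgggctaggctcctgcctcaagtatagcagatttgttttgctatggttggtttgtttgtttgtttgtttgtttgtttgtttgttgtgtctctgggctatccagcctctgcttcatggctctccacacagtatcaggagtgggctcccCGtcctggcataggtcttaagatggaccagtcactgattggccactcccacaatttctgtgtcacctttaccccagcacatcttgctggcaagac
The letters CG, which read the same on both strands, occur 3 times before Slamf1, 3 times before Cd84 and 1 time before Slamf6. Of the 10 genes, 7 had such a window. The count was 3 for Cd80, which was also negative as deposited. It was 3 for Pdcd1lg2, 11 for Cd274 and 23 for Icosl, which were positive as deposited. A link between these counts and the fold changes was not tested. Of 32851 promoter windows of this length 92.1% hold at least 1 CG, 37.8% hold 3 or fewer and 13.3% hold 23 or more. Cd40, Cd83 and Cd86 had no entry. The NF-kB consensus motif, searched on both strands, matched in 2 of these 7, Icosl and Pdcd1lg2, and in 13.8% of all windows.

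Slamf1 encodes the receptor after which the family is named, and its transcript had 30.3 and 34.3 FPKM in Csk(f/f)-labelled libraries, against 45.7, 38.3 and 36.6 FPKM in the Csk(+/+) libraries. The groups did not overlap (log2 fold change -0.30 ± 0.15, SE, limma adjusted p = 0.274). Slamf6, which encodes Ly108, had 10.9 and 12.6 FPKM in Csk(f/f)-labelled libraries, against 14.9, 14.2 and 16.96 FPKM in the Csk(+/+) libraries. Its libraries were separate as well (log2 fold change -0.36 ± 0.16, SE, limma adjusted p = 0.248). Cd84, a receptor of follicular helper and B cells needed for lasting contacts between them, had 4.18 and 3.14 FPKM in Csk(f/f)-labelled libraries, against 5.20, 5.56 and 6.06 FPKM in the Csk(+/+) libraries. This was the lowest fold of the 10 genes, 0.702 with a 95% interval of 0.512 to 0.964 (log2 fold change -0.51 ± 0.20, SE, limma adjusted p = 0.208). On the side of Slamf1 away from Cd84, Cd48, which encodes a ligand within the family, had 45.6 and 55.0 FPKM in Csk(f/f)-labelled libraries, against 72.8, 59.6 and 70.4 FPKM in the Csk(+/+) libraries (log2 fold change -0.42 ± 0.15, SE, limma adjusted p = 0.192, and -0.02 after GC correction). Among 4 tested SLAM receptors and adaptors outside the 10 genes, none (0) reached the adjusted threshold. Cd48 alone was lower at a limma p under 0.05 before adjustment, beside 13.6% of all tested genes. Slamf7 and Ly9, further along that stretch, had log2 fold changes of -0.12 ± 0.16 and -0.01 ± 0.12 (SE), and Cd244 was under the filter. Sh2d1b1, an adaptor of SLAM receptors, had -0.08 ± 0.20 (SE). As deposited the log2 fold change was below 0 for all 6 tested genes of the stretch, with that of Ly9 well within its SE, and for 5251 of all 10242 tested genes. After GC correction it was below 0 for 3 of the 6.

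**Figure D2:**
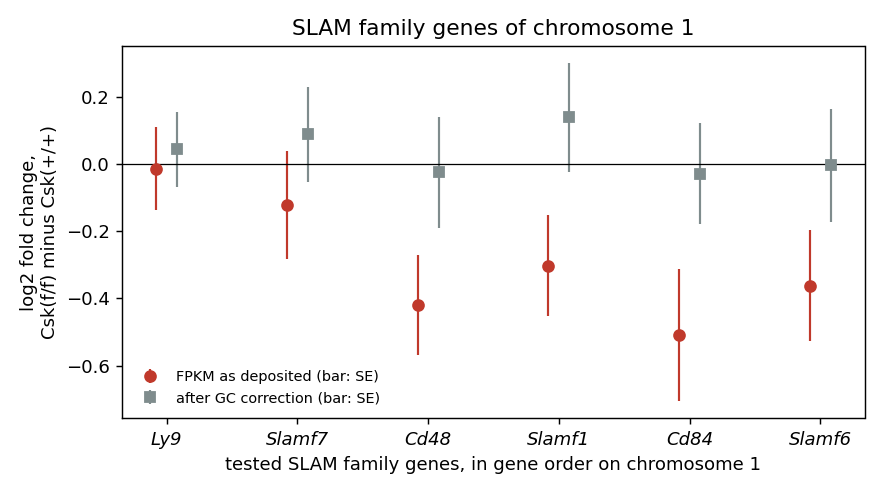
Log2 fold change, Csk(f/f)-labelled minus Csk(+/+) libraries (vertical axis), of the 6 tested SLAM family genes in their order on chromosome 1, as deposited (red circles) and after correction for GC content (grey squares), with bars of 1 SE. Red values run from -0.01 for Ly9 to -0.51 for Cd84, and grey values from -0.03 for Cd84 to 0.14 for Slamf1.

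Of the 10 genes, 0 passed at a limma adjusted p under 0.05 over all 10242 tested genes, where 0.0781% of tested genes did (0.0391% higher and 0.0391% lower). Without adjustment, 2 were higher (Cd83 and Cd40) and 2 were lower (Cd86 and Cd84) at a limma p under 0.05. Of all tested genes 21.7% passed that mark, 8.07% higher and 13.6% lower. Libraries of the groups did not overlap for 8 of the 10 genes, higher for Cd40, Cd83 and Pdcd1lg2 and lower for Cd80, Cd86, Slamf1, Slamf6 and Cd84. Over tested genes the share was 45.1%, made up of 20.7% higher and 24.5% lower. The median log2 fold change of the 10 was -0.07, with 5 positive and 5 negative, beside -0.01 over tested genes. The counts at an unadjusted p changed when single libraries were left out, which also leaves fewer libraries to test. The log2 fold changes then ran from 0.32 to 0.40 for Cd83 and from 0.25 to 0.30 for Cd40. They ran from -0.42 to -0.27 for Cd86 and from -0.67 to -0.35 for Cd84. Of the 10 genes, 0 were higher without Csk(+/+) replicate 1 or with either Csk(f/f)-labelled library left out. The number lower was 0 without Csk(+/+) replicate 1, 1 without Csk(+/+) replicate 2 and 3 without Csk(+/+) replicate 3. It was 1 without Csk(f/f) replicate 1 and 0 without its partner. Cd40, Cd83, Icosl and Pdcd1lg2 kept a positive sign, and Cd80, Cd86, Slamf1, Slamf6 and Cd84 a negative one, with each library left out in turn.

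The sign of the difference followed the base composition of the transcripts. The 5 genes with a negative log2 fold change had the 5 lowest GC contents, 39.3% for Cd84, 40.6% for Slamf1, 42.7% for Cd80, 43.0% for Slamf6 and 43.2% for Cd86. The 5 with a positive one had 44.9% (Cd274), 48.8% (Cd40), 49.5% (Pdcd1lg2), 51.8% (Cd83) and 52.5% (Icosl). All tested genes showed such a trend, with a Spearman rho of 0.71 between log2 fold change and GC content, across genes that share the same 5 libraries. With tested genes cut into 10 equal bands by GC content, the band medians of log2 fold change started at -0.47 in the lowest band, which holds Slamf1 and Cd84, followed by -0.38 in the next, which holds Cd80, Cd86 and Slamf6. It was -0.28 in the band of Cd274, -0.06 in that of Cd40 and Pdcd1lg2, and 0.15 in that of Cd83 and Icosl. All 5 genes with positive values lay above the median of their band, and of the others Cd84 alone lay below it.

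**Figure D3:**
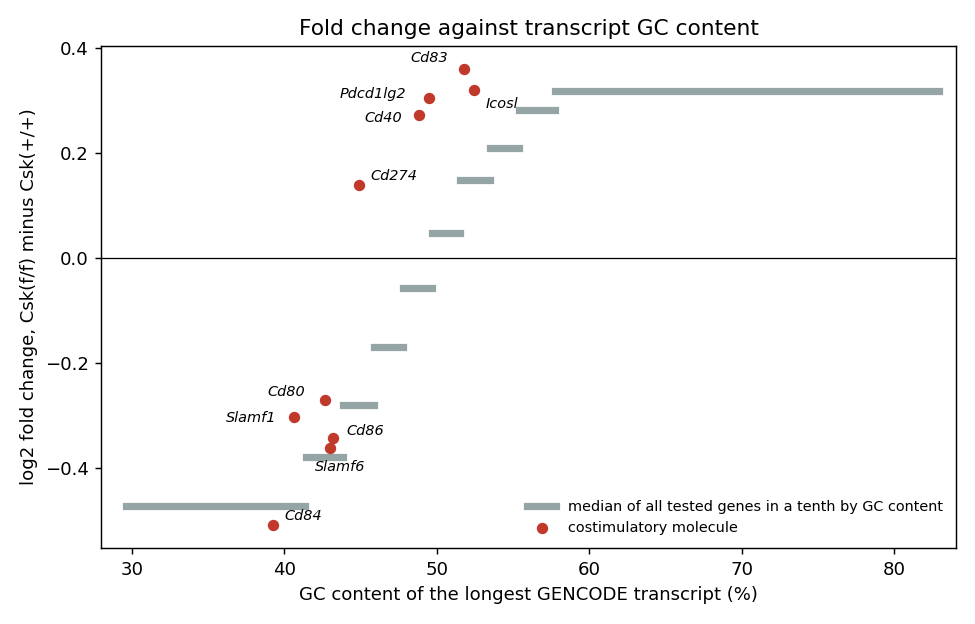
Log2 fold change, Csk(f/f)-labelled minus Csk(+/+) libraries (vertical axis), against GC content of the longest transcript in percent (horizontal axis). Red points are the 10 genes, and grey bars give the median of all tested genes in each of 10 bands by GC content, from -0.47 at the left to 0.32 at the right.

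A correction that subtracts each library's trend with GC content took the lower genes close to 0. After it the log2 fold change was 0.00 ± 0.11 (SE) for Cd86, -0.00 ± 0.17 for Slamf6, -0.03 ± 0.15 for Cd84, 0.10 ± 0.16 for Cd80 and 0.14 ± 0.16 for Slamf1. The sign thus turned for Cd80, Cd86 and Slamf1, each at a value smaller than its SE. The 95% intervals still allow a difference, from -0.39 to 0.33 for Cd84. The higher genes kept their sign, at 0.33 ± 0.12 (SE) for Cd40, 0.25 ± 0.16 for Cd83, 0.32 ± 0.17 for Pdcd1lg2 and 0.18 ± 0.22 for Icosl, and Cd274 stood at 0.41 ± 0.21. By limma 0 passed when adjusted over all genes, where 0.0791% of genes did (0.0395% higher and 0.0395% lower). Without adjustment Cd40 alone had a limma p under 0.05 (adjusted p = 0.455), as did 9.97% of genes, 4.89% higher and 5.08% lower. Corrected values of the groups did not overlap for Cd40, Cd83, Pdcd1lg2 and Cd274, all higher, beside 28.5% of genes, 14.6% higher and 13.9% lower. The median log2 fold change of the 10 became 0.16, with 8 positive, beside 0.00 over all genes. Without Csk(+/+) replicate 3 the corrected log2 fold change was 0.38 for Cd40 and 0.30 for Cd83 (limma adjusted p = 0.111 and 0.186) and -0.02 for Icosl. Whether base composition or the label of the group accounts for the uncorrected differences was not tested.

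**Figure D4:**
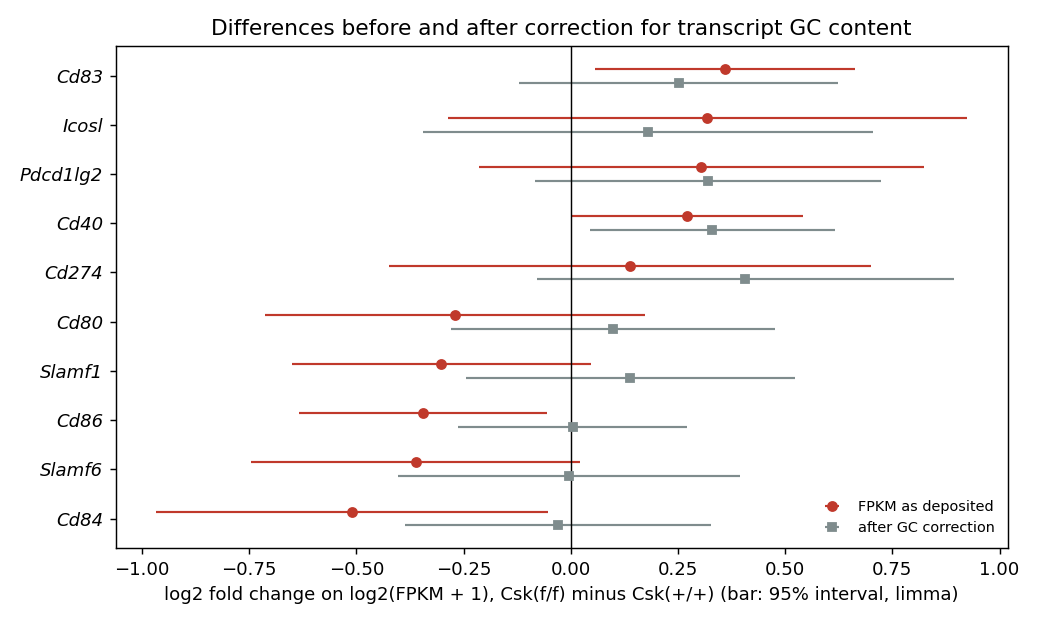
Log2 fold change on the log2(FPKM + 1) scale, Csk(f/f)-labelled minus Csk(+/+) libraries (horizontal axis), for the 10 genes as deposited (red circles) and after correction for GC content (grey squares), with 95% limma intervals. Cd40 is at 0.27 before and 0.33 after, and Cd86 at -0.34 before and 0.00 after.

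The balance between genes that share a receptor or family was compared within libraries, as the log2 ratio of FPKM + 1. For Cd80 over Cd86 it was -5.00 and -5.09 in Csk(f/f)-labelled libraries, against -5.11, -5.04 and -5.21 in the Csk(+/+) libraries. The groups overlapped, with a difference of 0.07 (two-sided exact permutation p = 0.4). The added constant sets this sign, since the difference was -0.15 with 0.1 added in place of 1 and 0.23 with 5 added. For Pdcd1lg2 over Cd274 it was 0.95 and 0.59 in Csk(f/f)-labelled libraries, against 0.59, 0.59 and 0.63 in the Csk(+/+) libraries. The difference of 0.17 (exact permutation p = 0.2) came from Csk(f/f) replicate 1, and without that library it was -0.01, as it was -0.09 after GC correction. For Slamf1 over Slamf6 the ratio was 1.40 and 1.38 in Csk(f/f)-labelled libraries, against 1.56, 1.37 and 1.07 in the Csk(+/+) libraries (difference 0.06, exact permutation p = 0.8). Adjusted over the 3 ratios, the exact p-values were 0.6, 0.6 and 0.8, and 5 libraries allow no unadjusted p under 0.1.

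Other costimulators gave a similar picture of values that did not pass. Of 11 further B7, TNF and CD28 family genes 5 were tested, and 0 passed by limma over all genes, with 1 higher and 1 lower at a limma p under 0.05 before adjustment (1 and 0 after GC correction). Beside this and the list counts that follow stand the shares of all tested genes at that mark, 8.07% higher and 13.6% lower as deposited and 4.89% higher and 5.08% lower after GC correction. Cd70, the ligand of CD27, had 3.57 and 3.14 FPKM in Csk(f/f)-labelled libraries, against 1.27, 1.84 and 1.45 FPKM in the Csk(+/+) libraries. It was higher without overlap, as were 20.7% of all tested genes. Its log2 fold changes were 0.79 ± 0.20 (SE) as deposited and 0.51 after GC correction (limma adjusted p = 0.154 before). Btla, an inhibitory receptor of the CD28 family, averaged 34.0 ± 8.32 FPKM in Csk(f/f)-labelled libraries and 46.8 ± 5.21 FPKM in the Csk(+/+) libraries (SD, n = 2 and n = 3). Its log2 fold change was -0.47 as deposited and -0.03 after the correction (limma adjusted p = 0.210 before). Tnfsf9, the 4-1BB ligand, averaged 12.1 FPKM in Csk(f/f)-labelled libraries and 9.51 FPKM in Csk(+/+) libraries. Among regulators of these proteins at the surface, 0 of 7 passed by limma, with 0 higher and 1 lower at a limma p under 0.05 before adjustment (0 and 0 after GC correction). Adam10, the protease that sheds ICOSL, averaged 11.8 ± 3.92 FPKM in Csk(f/f)-labelled libraries and 18.6 ± 1.78 FPKM in Csk(+/+) libraries (log2 fold change -0.64, limma adjusted p = 0.180). March1, the ligase that removes CD86, averaged 12.7 ± 4.44 FPKM in Csk(f/f)-labelled libraries and 17.5 ± 3.83 FPKM in Csk(+/+) libraries (log2 fold change -0.45, limma adjusted p = 0.313). After the GC correction the log2 fold changes were -0.25 for Adam10 and -0.01 for March1. Adam17, a related protease, had a log2 fold change of -0.42 (limma adjusted p = 0.286).

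Genes downstream of CD40 included none that passed by limma over all genes, among 19 tested genes known to be induced by CD40 ligation. At an unadjusted p under 0.05, 5 were higher and 1 lower as deposited, beside 8.07% and 13.6% of all tested genes, and 2 and 0 after the GC correction, beside 4.89% and 5.08%. Their median log2 fold change was 0.02, with 10 positive and 9 negative, and 0.10 after the correction. Nfkbie, an inhibitor of NF-kB that NF-kB induces, had 105 and 110 FPKM in Csk(f/f)-labelled libraries, against 74.0, 74.4 and 54.5 FPKM in the Csk(+/+) libraries. It had the smallest p of the list (log2 fold change 0.67 ± 0.17, SE, limma adjusted p = 0.154), and 0.43 after the correction. Nfkb2, an NF-kB subunit, averaged 191 ± 18.7 FPKM in Csk(f/f)-labelled libraries and 134 ± 24.1 FPKM in Csk(+/+) libraries (log2 fold change 0.52, limma adjusted p = 0.180, and 0.20 after the correction). Traf1, an adaptor induced by CD40, averaged 73.1 ± 1.07 FPKM in Csk(f/f)-labelled libraries and 56.6 ± 4.30 FPKM in Csk(+/+) libraries (log2 fold change 0.37, limma adjusted p = 0.186, and 0.17 after the correction). Of the 8 CD40 adaptor genes 0 passed by limma, with 2 higher and 2 lower at a limma p under 0.05 before adjustment, and 1 and 1 after the GC correction, beside the same shares of all tested genes. Traf2, the main TRAF adaptor of CD40, averaged 37.0 FPKM in Csk(f/f)-labelled libraries and 29.3 FPKM in Csk(+/+) libraries, with log2 fold changes of 0.33 as deposited and 0.25 after the correction. Map3k14, which encodes the kinase NIK, averaged 27.7 FPKM in Csk(f/f)-labelled libraries and 19.1 FPKM in Csk(+/+) libraries (0.53 and 0.22 on the same scale). Birc2, which encodes the ubiquitin ligase cIAP1, was on the other side, with 9.92 FPKM in Csk(f/f)-labelled libraries and 16.8 FPKM in Csk(+/+) libraries (-0.69 and -0.34).

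Adhesion molecules of the contact between B and T cells had values of both signs. Of 9 tested, 0 passed by limma over all genes, and 3 were higher and 2 lower at a limma p under 0.05 before adjustment, beside 8.07% and 13.6% of all tested genes. After GC correction 1 was higher and 0 were lower, beside 4.89% and 5.08%. Icam2, a ligand of the integrin LFA-1, had 51.3 and 54.7 FPKM in Csk(f/f)-labelled libraries, against 37.6, 37.6 and 36.9 FPKM in the Csk(+/+) libraries (log2 fold change 0.49 ± 0.12, SE, 0.30 after the GC correction, limma adjusted p = 0.154 before). Itgb2, the beta chain of LFA-1, averaged 170.1 ± 3.37 FPKM in Csk(f/f)-labelled libraries and 130.1 ± 7.24 FPKM in Csk(+/+) libraries (log2 fold change 0.39, limma adjusted p = 0.173, and 0.22 after the correction). Cd24a, a glycoprotein of immature and germinal centre B cells, had 224 and 198 FPKM in Csk(f/f)-labelled libraries, against 328, 312 and 337 FPKM in the Csk(+/+) libraries (log2 fold change -0.63 ± 0.13, SE, -0.27 after the correction, limma adjusted p = 0.152 before). None of these 3, which were named for the smallest p of the list, overlapped between groups as deposited. Of the 9 tested, 3 were higher and 2 lower without overlap, beside 20.7% and 24.5% of all tested genes.

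The T cell partners of these molecules had low or no signal. Icos and Il4 were listed at 0 in all 5 libraries, Il21 was at most 0.0202 FPKM, and Cd28 and Cd40lg were at most 0.0423 and 0.222 FPKM. Of 7 such genes only Pdcd1, which encodes PD-1, passed the filter, at 0.740 and 1.27 FPKM in Csk(f/f)-labelled libraries and 1.28, 1.09 and 1.35 FPKM in the Csk(+/+) libraries. Ctla4, a receptor of CD80 and CD86, was below the filter, with 0.717 and 0.886 FPKM in Csk(f/f)-labelled libraries and 0.739, 0.218 and 0.628 FPKM in the Csk(+/+) libraries. Pdcd1 was thus in the range of Cd80, the lowest of the 10 genes, and Ctla4 reached that range in 3 libraries.

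By the root mean square difference of centred log2 profiles over the 5 libraries, Cd83 and Cd40 were each other's nearest among the 10 genes (0.0806), as were Cd86 and Cd80 (0.0690) and Pdcd1lg2 and Cd274 (0.141). Cd274 was nearest to Icosl (0.217), and Cd86 was nearest to each of the 3 SLAM genes (0.129 to 0.139). Among 7392 other genes with a mean of at least 5 FPKM, the nearest was Rilpl2 for Cd83, Dda1 for Cd40, Eid1 for Cd86, Slain2 for Cd80, Klhl26 for Icosl, Gpr89 for Pdcd1lg2, Rexo4 for Cd274, Suclg2 for Slamf1, Aasdhppt for Slamf6 and Clec12a for Cd84. These differences ranged from 0.00983 for Slamf6 to 0.0371 for Pdcd1lg2.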

How the data were processed

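Sorted cells were lysed in TRIzol and libraries were prepared with the NEBNext Ultra kit, per the labels' protocols. The authors deposited FPKM per gene, 1 column per library, and TopHat2 2.0.8, Cufflinks 2.1.1 and the mm9 genome are named in the submitters' processing notes. The annotation, strand use and any scaling between libraries are not given in the sources used here. All 5 columns matched a library title, and a repeat of the header (1 line) was dropped. Columns give no counts, so depth was inferred from the spacing of low FPKM values, using transcripts of 1500 nt or longer, and fragments per gene are rough.

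Genes reaching 1 FPKM in 2 or more libraries (10242) entered limma 3.58.1, run in R 4.3.3 on log2(FPKM + 1) values (trended prior, Benjamini-Hochberg adjustment, 95% intervals). The fit was run on simulated data with independent noise, no trend with GC content and folds larger than those of the 10 genes. That check therefore covers neither such a trend nor differences of their size. GC content came from the longest GENCODE transcript by symbol, for 98.8% of tested genes, and the correction subtracted a lowess trend (span 0.3). No genome coordinates were taken from mm9. Ratios were tested by exact permutation. The 10 genes, the lists around them and the alternatives were chosen with earlier results of these data known. Named genes were the 10, Csk, up to 3 genes per list with the smallest p, and the nearest gene in profile. Ly9 and Cd244, for their place beside the SLAM genes, the untested T cell partners and single cell type markers were named outside this rule, after their values were seen. The labels call the samples biological replicates.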

Additional observations from a re-analysis of the deposited data

How the results depend on the processing

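None of the 10 genes passed at a limma adjusted p under 0.05 in any of the 18 alternative fits, and the lowest adjusted p was 0.0634, for Cd83. Across 177 values of the 10 genes, 18 turned their sign, some of them at values as small as 0.0023. The GC correction turned Cd80 (0.10), Cd86 (0.0041), Slamf1 (0.14) and Csk (-0.14). Leaving out Csk(+/+) replicate 3 beside the GC correction turned Cd80 (0.077), Cd86 (0.031), Slamf1 (0.081), Slamf6 (0.095), Cd84 (0.010), Icosl (-0.018) and Csk (-0.075). The cause was not tested. Correlations of same-numbered deviations from the group means were -0.13 and 0.11. With 2 Csk(f/f)-labelled libraries these deviations mirror each other, so the correlations cannot settle whether the replicate numbers mark pairs. With the replicate numbers as a block Cd274 turned (-0.030). Only the Csk(+/+) group has a replicate 3, so this block gives the same log2 fold changes as leaving that library out. Its range with 1 library left out was -0.030 to 0.29, negative without Csk(+/+) replicate 3 or Csk(f/f) replicate 2. With the block and the GC correction the turned values were 0.074 for Cd80, 0.028 for Cd86, 0.076 for Slamf1, 0.092 for Slamf6, 0.0023 for Cd84, -0.016 for Icosl and -0.074 for Csk.

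Over all genes, 4 higher and 4 lower genes were called. The counts were 194 and 477 with array weights, 110 and 382 with the replicate block, 81 and 69 with the block and GC correction, 16 and 24 with both the GC correction and the omission of Csk(+/+) replicate 3, and 2 lower without a filter. With 1 library left out they ranged from 0 to 128 higher and from 5 to 283 lower, the most without Csk(+/+) replicate 3, whose library weight was 0.259. Of the 10 genes, 2 were higher and 2 lower at a limma p under 0.05 before adjustment. Only 1 was higher without a trended prior, with robust empirical Bayes or with the GC correction, and 1 was lower with median-ratio rescaling or without a trended prior. Under the GC correction 0 were lower, alone, with the block or with Csk(+/+) replicate 3 left out. With 1 library left out, 0 to 2 were higher and 0 to 3 lower. The Cd80 over Cd86 ratio turned at a pseudocount of 0.1 (-0.15), and Pdcd1lg2 over Cd274 with the GC correction (-0.087). With 1 library left out the differences ran from 0.030 to 0.115 for Cd80 over Cd86, from -0.013 to 0.345 for Pdcd1lg2 over Cd274 and from -0.073 to 0.17 for Slamf1 over Slamf6, and for Csk from 0.13 to 0.23. A fit that leaves 1 Csk(f/f)-labelled library assumes that it varies like the Csk(+/+) libraries.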

Other observations

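Memory B cell markers were examined because Cd80 and Pdcd1lg2 also mark memory subsets. Of 9 tested markers, 0 passed by limma over all genes. Before adjustment 1 was higher and 0 were lower at a limma p under 0.05, beside 8.07% and 13.6% of all tested genes. After GC correction 2 were higher (Klf2 and Cd38) and 0 were lower, beside 4.89% and 5.08%. Klf2, a transcription factor of quiescent and recirculating lymphocytes, had 13.2 and 13.3 FPKM in Csk(f/f)-labelled libraries, against 6.69, 7.06 and 6.20 FPKM in the Csk(+/+) libraries. Its log2 fold change was 0.90 ± 0.17 (SE) as deposited and 0.57 after the GC correction (limma adjusted p = 0.128 before). Cd38, which mouse germinal centre B cells carry at low levels, averaged 7.87 ± 0.559 FPKM in Csk(f/f)-labelled and 5.87 ± 1.79 FPKM in Csk(+/+) libraries (SD, n = 2 and n = 3), with log2 fold changes of 0.40 before and 0.84 after the correction. Nt5e, which encodes CD73, averaged 6.39 ± 1.06 FPKM in Csk(f/f)-labelled libraries and 8.75 ± 1.54 FPKM in Csk(+/+) libraries (log2 fold change -0.40, limma adjusted p = 0.297).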
